A study of Mus musculus with 2 samples.

Results

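Interferons are cytokines that cells release when they sense viral or bacterial nucleic acid, and interferon-stimulated genes are those that the receptor signal switches on. The genes described here are 44 interferon-stimulated genes and sensors of mouse, made up of 4 receptor chains, 10 sensors and 30 effectors. They were chosen by name, with earlier results of these data known, and were matched by gene identifier to GENCODE M21. All 44 were found, among 42462 annotated genes and 69691 features of each table. The material was HSC (hematopoietic stem cells, from which all blood lineages descend), in 1 group of 2 biological replicates. Both replicates came from adult male mice of strain C57BL/6J aged 5 to 6 weeks, with no treatment and no introduced allele given in the labels. The labels give both replicates the same donor entry, so they may or may not stem from separate animals, and the spread between them may be partly technical. Total RNA was sequenced after removal of ribosomal RNA, from 100 ng with the ScriptSeq kit. The labels name a bone marrow progenitor isolation protocol but not the surface gate.

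Type I interferons bind the chains Ifnar1 and Ifnar2, and the kinases Jak1 and Tyk2 then activate a complex that contains Stat2 and Irf9. This complex binds the interferon-stimulated response element in promoters. Interferon gamma binds Ifngr1 and Ifngr2, and its signal acts mainly at the gamma-activated site. In mice, interferon is known to drive dormant stem cells into the cell cycle, and stem cells are known to carry some interferon-stimulated transcripts without infection.

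The promoters show the sequence that ties many of these genes together. The response element core was searched as GAAANNGAA on both strands of RefSeq promoters of GRCm38.p6, from 250 bases before to 50 after each start. Of the 44 members, 35 had a promoter in that table, and 21 of these 35 held the core (60.0%), against 9.76% of all 27025 genes of the table. Of the members in the table, the core was present in 8 of 8 sensors, 13 of 23 effectors and 0 of 4 receptor chains. In 20 of the 21 promoters a match lay between 150 bases before and 50 after the start. That zone is most of the searched window, and the same count over all genes was not made. Since the members were picked as interferon-stimulated genes, the share is a description and no test. The following lines give the 150 bases before the start of the 2 members of highest and the 2 of lowest mean level among those with the core. Capitals mark the core on either strand, and matches that overlap run together.
Irgm1, chr11:48871421-48871570, minus strand: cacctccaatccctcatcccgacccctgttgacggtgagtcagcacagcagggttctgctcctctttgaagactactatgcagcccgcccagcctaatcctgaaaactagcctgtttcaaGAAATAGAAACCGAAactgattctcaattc
Gbp2, chr3:142620513-142620662, plus strand: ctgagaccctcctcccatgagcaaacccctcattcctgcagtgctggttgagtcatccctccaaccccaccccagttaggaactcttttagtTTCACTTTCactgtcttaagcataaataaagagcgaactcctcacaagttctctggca
Oas1g, chr5:120887614-120887763, minus strand: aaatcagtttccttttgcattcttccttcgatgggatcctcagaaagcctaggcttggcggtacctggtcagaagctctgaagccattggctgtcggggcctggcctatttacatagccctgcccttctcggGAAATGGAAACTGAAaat
Isg15, chr4:156200819-156200968, minus strand: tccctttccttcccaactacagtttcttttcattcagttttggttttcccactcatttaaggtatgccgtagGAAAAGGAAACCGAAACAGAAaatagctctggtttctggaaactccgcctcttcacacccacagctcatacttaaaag
Starts are those of RefSeq. GENCODE M21 places the outermost start of Gbp2 inside the printed window and that of Irgm1 upstream of it. The Isg15 window held 3 overlapping cores, the Irgm1 and Oas1g windows 2 each, and the Gbp2 window 1. Isg15 averaged 1.035 TPM and Irgm1 19.45 TPM, so the number of cores and the level did not run in parallel among these 4 genes. Over the 35 members in the promoter table, the median of the mean level was 5.61 TPM in the 21 genes with the core. It was 7.80 TPM in the 14 without it, which include all 4 receptor chains, so the medians also differ in role.

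Shorter windows show the core in families that lie side by side in the genome, with 12 bases on either side of the matches shown.
Gbp2, chr3:142620593-142620625, plus strand: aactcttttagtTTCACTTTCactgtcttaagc
Gbp3, chr3:142559988-142560026, plus strand: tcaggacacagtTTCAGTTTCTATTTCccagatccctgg
Gbp7, chr3:142530272-142530304, plus strand: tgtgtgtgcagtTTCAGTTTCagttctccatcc
Oas1a, chr5:120907519-120907557, minus strand: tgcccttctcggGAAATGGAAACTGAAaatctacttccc
Oas1g, chr5:120887605-120887643, minus strand: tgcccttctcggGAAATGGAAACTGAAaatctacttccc
Oas3, chr5:120777708-120777746, minus strand: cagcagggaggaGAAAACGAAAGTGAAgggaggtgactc
Ifit1, chr19:34640768-34640825, plus strand: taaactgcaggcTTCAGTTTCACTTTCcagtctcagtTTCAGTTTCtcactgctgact
Ifit3, chr19:34583396-34583447, plus strand: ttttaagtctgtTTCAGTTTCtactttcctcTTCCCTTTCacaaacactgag
In the 3 Gbp genes the core reads on the opposite strand, and in the 3 Oas genes on the strand of the gene. The Oas1a and Oas1g lines are the same 39 bases, although the whole promoter windows of these genes were identical at 88.8% of 294 aligned bases. The gamma-activated site, searched as TTCNNNGAA, was present in 11 of the 35 member promoters (31.4%), against 9.55% of all genes of the table. It was found in Ifnar1 and Ifnar2, and 6 genes, Adar, Bst2, Eif2ak2, Gbp7, Igtp and Oas1a, held both motifs. Promoters were not analysed here for Dhx58, Ifi27, Mx1, Mx2, Oas2, Parp14, Parp9, Rtp4 and Usp18.

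**Figure D1:**
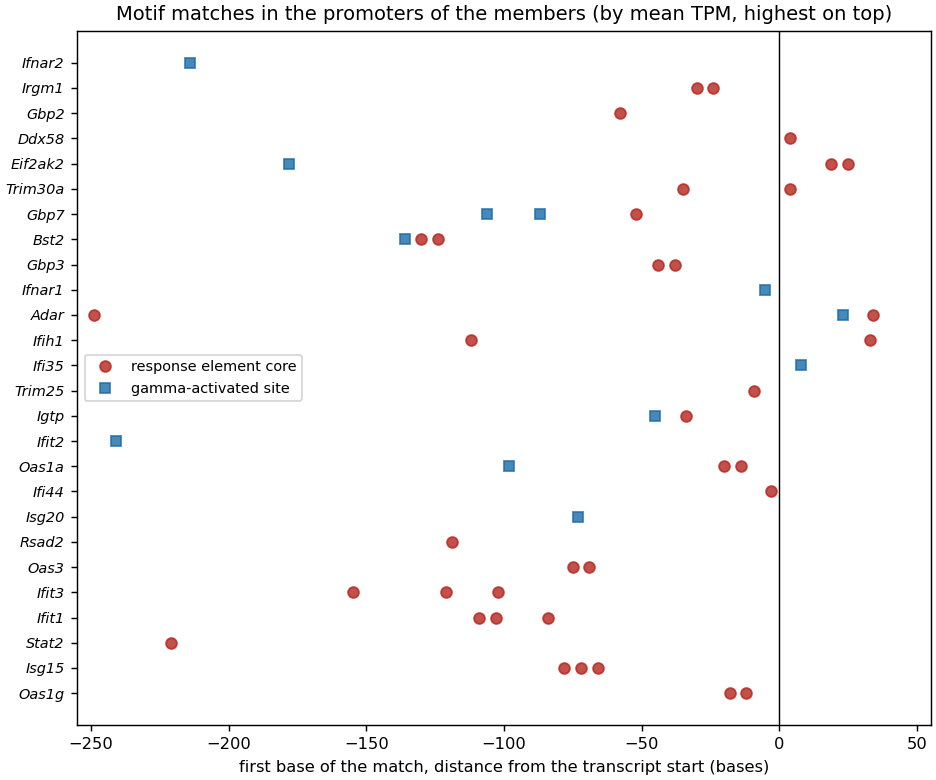
Each point is the first base of a motif match, plotted by its distance from the RefSeq transcript start in bases, for members with at least 1 match. Circles are the response element core and squares the gamma-activated site, with genes ordered by mean TPM. In 20 of 21 genes a core lies between 150 bases before and 50 after the start, a zone that is most of the searched window.

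Replicate 1 held 27901074 expected counts and replicate 2 held 48490188, of which the 44 members took 0.239% and 0.232%. For a gene without reads, 3 counts is the upper limit, and equals 0.108 CPM for replicate 1 and 0.0619 CPM for replicate 2, CPM being counts divided by the library total and scaled up. Floors and the deposited intervals cover counting and assignment error only. All 15 HSC markers, such as Kit and Mecom, were detected, but so were all 16 markers of the neutrophil lineage, such as Mpo and S100a8. This list does not part progenitors from mature neutrophils. HSC markers summed to 600 TPM in replicate 1 and 713 TPM in replicate 2. The summed level of the neutrophil-lineage markers was above this in both libraries. It was 3253 TPM in replicate 1 and 1259 TPM in replicate 2, with all 16 higher in replicate 1. Monocyte and macrophage markers summed to 379 TPM in replicate 1 and 178 TPM in replicate 2, and erythroid markers to 136 TPM in replicate 1 and 285 TPM in replicate 2. Of dendritic cell markers 5 of 14 were detected, summing to 114 TPM in replicate 1 and 117 TPM in replicate 2, with Siglech at 0 counts in both libraries. The dendritic list shares Bst2 with the members and Flt3 with the HSC markers, so its sum is not separate from these. Of T and natural killer cell markers 4 of 12 were detected, summing to 23.7 TPM in replicate 1 and 20.99 TPM in replicate 2, with Cd8a and Trac at 0 counts. Of B cell markers 1 of 10 was detected, summing to 5.80 TPM in replicate 1 and 4.19 TPM in replicate 2, with 4 at 0 counts, Pax5 among them. The part of these cells in the values of the members was not tested, and in such bulk libraries fewer cells of a type and less RNA per cell cannot be told apart.

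On the deposited TPM scale most of the members were present at a low to moderate level in these untreated cells. The unit is TPM, in which the authors divided each count by effective length before scaling to a constant sum, so that genes can be compared per length. Protein-coding genes held only 16.3% of all TPM in replicate 1 and 20.3% in replicate 2, so their deposited TPM values are small. Rescaled over protein-coding genes alone, Irgm1 had 99.0 TPM in replicate 1 and 112 TPM in replicate 2. On that scale Isg15 had 4.30 TPM in replicate 1 and 6.75 TPM in replicate 2. At 1 TPM in both libraries 38 of the 44 were detected, against 44% of all 21474 protein-coding genes. All 44 had at least 34 counts in each library, and the largest count was 9335. The 6 below 1 TPM in at least 1 library were Oas1g, Oas2, Ifit3, Isg15, Oasl1 and Mx1. The median member stood at 5.72 TPM in replicate 1 and 6.49 TPM in replicate 2, against 0.51 and 0.53 TPM for all protein-coding genes. Among protein-coding genes detected in both libraries the median was 5.84 TPM in replicate 1 and 7.16 TPM in replicate 2, and 22 of the 44 members lay above the median of their mean level, 6.58 TPM. On the log2 (TPM + 1) scale the members' median exceeded that of all protein-coding genes by 2.22 ± 0.098 (SD, n = 2). Where both sets were limited to genes of at least 10 counts per library, the difference was 0.39.

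**Figure D2:**
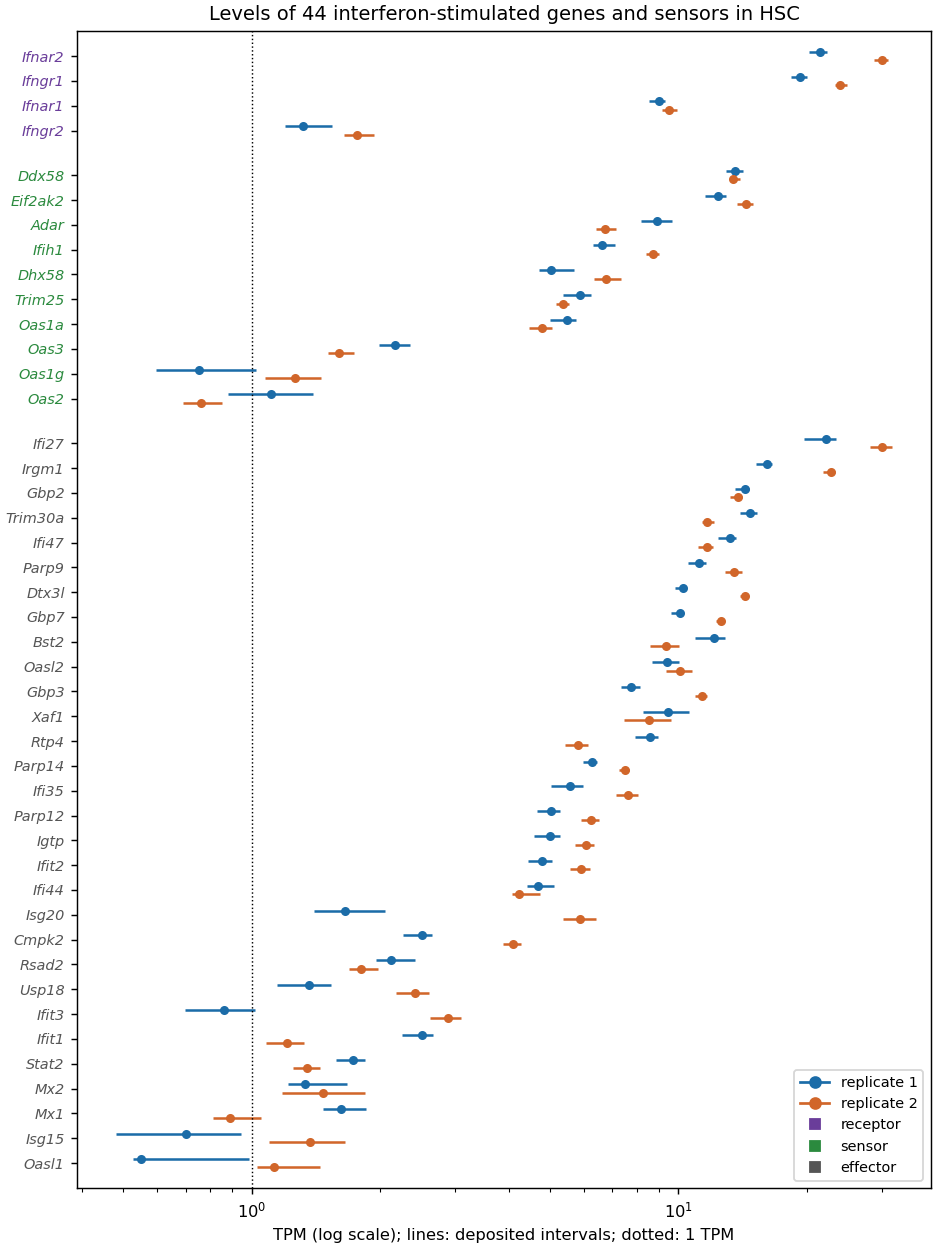
TPM of each member on a log scale in replicate 1 and replicate 2, with the deposited intervals as lines and the 1 TPM detection level dotted. Genes are sorted by mean level within receptors, sensors and effectors. Mean levels run from 0.84 TPM for Oasl1 to 26.1 TPM for Ifi27.

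The receptors for both kinds of interferon were present, but each pair was unequal. Ifnar2, the chain that binds type I interferon with high affinity, had 21.5 TPM in replicate 1 and 30.03 TPM in replicate 2. Ifnar1, its partner, had 8.98 and 9.50 TPM in the same order. Ifnar1 was thus at 0.366 times the level of Ifnar2, with intervals that did not overlap in either library. Ifngr1, which binds interferon gamma, had 19.2 TPM in replicate 1 and 23.95 TPM in replicate 2. Ifngr2, needed for the signal, had 1.32 TPM in replicate 1 and 1.76 TPM in replicate 2, from 349 and 689 counts. Ifngr1 was 13.3-fold higher than Ifngr2, the widest ratio among the 2 receptor pairs, and Ifngr2 was the only receptor chain below 2 TPM. Ifnar2, Ifnar1 and Ifngr2 lie within 193 kb of each other on chromosome 16, and their mean levels spanned 16.7-fold. Exon bases of Ifnar2 are shared with Gm21970 on the same strand, which was at 0 counts in both libraries.

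Most of the Ifnar2 level was in a short transcript. Ifnar2-203, of 1099 bases and a coding length of 744, took 63.7% of the gene's TPM in replicate 1 and 63.1% in replicate 2. Ifnar2-201, of 3047 bases and a coding length of 1539, the longest annotated, took 28.4% in replicate 1 and 32.1% in replicate 2. A soluble or truncated form of this receptor chain, made by alternative splicing, is known in mice. By expected counts the order of the transcripts was the other way, with 1072.8 counts for Ifnar2-203 and 1507.26 for Ifnar2-201 in replicate 1, and 2103.17 and 3503.71 in replicate 2.

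The sensors of RNA were led by Ddx58 and Eif2ak2. Ddx58 is RIG-I, which detects uncapped ends of viral RNA, and had 13.6 TPM in replicate 1 and 13.45 TPM in replicate 2, among the smallest differences between the libraries. Ifih1 is MDA5, a detector of long double-stranded RNA, and had 6.63 TPM in replicate 1 and 8.70 TPM in replicate 2. Dhx58 is LGP2, a relative without the signalling domain, and had 5.04 TPM in replicate 1 and 6.78 TPM in replicate 2. In both libraries Ddx58 stood above Ifih1 and Dhx58, which were at 0.566 and 0.437 times its level. Trim25, a ubiquitin ligase known to act with RIG-I, had 5.87 TPM in replicate 1 and 5.35 TPM in replicate 2. Eif2ak2, the kinase PKR that halts translation on double-stranded RNA, had 12.35 TPM in replicate 1 and 14.4 TPM in replicate 2.

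The oligoadenylate synthetases, enzymes switched on by double-stranded RNA, had the lowest mean levels of the sensors, although Oas1a was above Dhx58 in replicate 1. Oas1a had 5.47 TPM in replicate 1 and 4.79 TPM in replicate 2. Oas3 had 2.17 TPM in replicate 1 and 1.60 TPM in replicate 2, and Oas2 1.11 and 0.76 TPM in the same order. Oas1g had 0.75 TPM in replicate 1 and 1.26 TPM in replicate 2. The 4 genes lie within 177 kb on chromosome 5, and their mean levels spanned 5.49-fold. Oas1a was 4.85-fold above Oas1g, but their coding sequences were identical at 96.7% of 1101 aligned bases, so the split of reads between them is uncertain. Within Oas1g, a nonsense-mediated decay transcript, Oas1g-203, took 52.2% of the TPM in replicate 1 and 98.1% in replicate 2. In replicate 1 Oas1g-203 rested on 44.14 counts, with an interval from 0.114 to 0.755 TPM. That overlapped the interval of the coding Oas1g-201, from 0.140 to 0.551 TPM, so the share in replicate 1 is not resolved.

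Adar, which edits double-stranded RNA and keeps the cell's own RNA from the sensors, had 8.92 TPM in replicate 1 and 6.73 TPM in replicate 2. The gene is known to make a long, interferon-inducible form and a shorter, constitutive one. Transcripts with a coding length of 3456 to 3534 bases took 37.7% of its TPM in replicate 1 and 49.4% in replicate 2. Those with a coding length of 1902 to 2790 took 31.5% in replicate 1 and 38.0% in replicate 2. This shorter class mixes starts, since Adar-204 and Adar-205 share the start of the long transcripts and Adar-202 does not. Adar-202 alone took 22.8% in replicate 1 and 21.4% in replicate 2. The classes by length therefore do not measure the 2 known forms. Both length classes were present in both libraries, and the rest was in retained-intron transcripts, 30.8% in replicate 1 and 12.6% in replicate 2. Of these, Adar-207 had 2.01 TPM in replicate 1, from 50.32 counts, and 0 in replicate 2. Eif2ak2 was 1.71-fold above Adar. Adar shares 1365 exon bases with Chrnb2 on the opposite strand, which had 38 counts in replicate 1 and 0 in replicate 2.

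Among effectors, 2 of the Ifit genes stood in opposite order in the libraries. Ifit proteins bind foreign RNA and block its translation. Ifit2 had 4.80 TPM in replicate 1 and 5.91 TPM in replicate 2. Ifit1 had 2.50 TPM in replicate 1 and 1.21 TPM in replicate 2. Ifit3 had 0.86 TPM in replicate 1 and 2.88 TPM in replicate 2. Ifit1 was therefore the higher of the last pair in replicate 1 and Ifit3 in replicate 2, with intervals that did not overlap in either library, although the genes lie within 99.3 kb on chromosome 19 and both promoters hold the core. Ifit3b, at 99.1% identity to Ifit3 over 1209 aligned coding bases, had 0.15 TPM in replicate 1 and 0.16 TPM in replicate 2, and the split of reads between these copies is uncertain. Ifit1 shared 66.5% of 1112 aligned coding bases with Ifit3.

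Guanylate-binding and immunity-related GTPases attack the compartments of intracellular pathogens. Those among the members ranged from 5.53 TPM for Igtp to 19.45 TPM for Irgm1 in mean level. Irgm1, whose loss in mice is known to push stem cells into cycle, had 16.1 TPM in replicate 1 and 22.8 TPM in replicate 2. Ifi47 had 13.2 TPM in replicate 1 and 11.7 TPM in replicate 2, and Igtp 4.99 and 6.06 TPM in the same order. Igtp was at 0.291 times the level of Irgm1, and Ifi47 was 2.24-fold above Igtp. Gbp2 had 14.3 TPM in replicate 1 and 13.8 TPM in replicate 2, Gbp7 had 10.1 and 12.6 TPM, and Gbp3 had 7.76 and 11.3 TPM. These 3 neighbours on chromosome 3 spanned only 1.47-fold in mean level, in the same order in both libraries. That order holds per length only. By CPM Gbp7 was highest, with 167 in replicate 1 and 178 in replicate 2, against 103 and 83.7 for Gbp2. All Gbp7 TPM was in Gbp7-202, of 5534 bases in the deposited values but 2497 in GENCODE M21. Igtp shares 162 exon bases with its relative Irgm2 on the same strand, which had 4.55 TPM in replicate 1 and 5.33 TPM in replicate 2.

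In the ADP-ribosyltransferase group, Parp9 and its partner Dtx3l stood above Parp14 and Parp12. Parp9 and Dtx3l form a complex that ubiquitinates chromatin and viral proteins, and their genes overlap head to head on opposite strands of chromosome 16. Parp9 had 11.2 TPM in replicate 1 and 13.5 TPM in replicate 2, and Dtx3l 10.3 and 14.3 TPM in the same order. Their ratio on the log2 scale was 0.02 ± 0.15 (SD, n = 2), and the pair was not ordered. By CPM without division by length the ratio was -1.11, so the near equality holds per length only. Their 458 shared exon bases leave the split of reads uncertain, since no source used here says whether the counting used strand. Parp14, an enzyme that adds single ADP-ribose units, had 6.27 TPM in replicate 1 and 7.50 TPM in replicate 2. Parp12, another such enzyme, had 5.03 TPM in replicate 1 and 6.25 TPM in replicate 2. Parp14 was at 0.562 times Parp9 per length. With CPM the order turned, with a log2 ratio of Parp14 over Parp9 of 0.75, since Parp14 transcripts are long.

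Isg15 and the enzyme that removes it were near the detection level of 1 TPM on the deposited scale. Isg15, a ubiquitin-like protein that is attached to other proteins after interferon, had 0.70 TPM in replicate 1, from 34 counts, and 1.37 TPM in replicate 2, from 91 counts. Usp18, which removes Isg15 and also restrains signalling at Ifnar2, had 1.36 TPM in replicate 1 and 2.41 TPM in replicate 2. Isg15 was at 0.566 times the level of Usp18. Isg20, an exonuclease of RNA, had 1.65 TPM in replicate 1 and 5.89 TPM in replicate 2. The deposited shares of its transcripts differed as well. Isg20-201 took 58.8% of the gene's TPM in replicate 1 and 22.0% in replicate 2, and Isg20-203 took 30.9% in replicate 1 and 59.8% in replicate 2, both with a coding length of 543. In replicate 1 Isg20-203 rested on 28.83 counts, with an interval from 5.5e-05 to 0.904 TPM, so its share there is not resolved. The TPM intervals of Isg20-201 overlapped between the libraries, and those of Isg20-203 did not.

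The Oasl pair was unequal too. Oasl2, an active synthetase in mice, had 9.38 TPM in replicate 1 and 10.1 TPM in replicate 2. Oasl1, which in mice is known to hold back translation of Irf7, had 0.55 TPM in replicate 1 and 1.13 TPM in replicate 2, the lowest mean of all 44 members. Oasl2 was 11.0-fold above Oasl1, 41.0 kb away on chromosome 5. The larger part of the Oasl2 level was in a transcript annotated for nonsense-mediated decay, Oasl2-205, with 55.8% in replicate 1 and 57.8% in replicate 2.

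Several effectors that restrict viruses directly were low. Mx1, a dynamin-like GTPase against influenza, had 1.62 TPM in replicate 1 and 0.89 TPM in replicate 2. Mx2, annotated as a polymorphic pseudogene, had 1.33 TPM in replicate 1 and 1.47 TPM in replicate 2, and the pair was not ordered. Most inbred mouse strains, C57BL/6 among them, are known to carry a defective Mx1. A nonsense-mediated decay transcript, Mx1-205, took 38.6% of Mx1 in replicate 1 and 0 in replicate 2. Mx2-201 took 95.4% of Mx2 in replicate 1 and 49.9% in replicate 2. The intervals of Mx2-201 reached from 0.072 to 1.28 TPM in replicate 1 and from 0.013 to 0.714 TPM in replicate 2, so its share is not resolved. The mean coding share of Mx2 was 72.7% with TPM and 38.5% with posterior means. Rsad2, or viperin, which makes a chain-terminating nucleotide, had 2.12 TPM in replicate 1 and 1.80 TPM in replicate 2. Cmpk2, the nucleotide kinase encoded beside it, had 2.50 TPM in replicate 1 and 4.10 TPM in replicate 2. Their pair was not ordered, with intervals that overlapped in replicate 1. Bst2, or tetherin, which holds virus particles at the cell surface, was higher, with 12.1 TPM in replicate 1 and 9.35 TPM in replicate 2, all in its single transcript.

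The remaining effectors ranged widely. Ifi27, a small hydrophobic interferon-induced protein, had the highest mean of all members, with 22.1 TPM in replicate 1 and 30.1 TPM in replicate 2. Only 35.0% of this level in replicate 1 and 9.55% in replicate 2 lay in protein-coding transcripts. The retained-intron transcript Ifi27-209, of 527 bases, took 52.8% in replicate 1 and 74.4% in replicate 2. By expected counts it had 338.03 of 905 in replicate 1, where the coding Ifi27-202 and Ifi27-205 had 253.23 and 212.11. The larger part of retained-intron transcripts in replicate 1 thus holds per length only. In replicate 2 Ifi27-209 had 824.16 of 1281 counts. Ifi27 was 5.69-fold above Ifi44 per length, but with CPM the log2 ratio of the pair was -0.26. Ifi44, an interferon-induced cytoplasmic protein, had 4.68 TPM in replicate 1 and 4.23 TPM in replicate 2. Trim30a, a tripartite-motif protein, had 14.7 TPM in replicate 1 and 11.7 TPM in replicate 2. Xaf1, a partner of the apoptosis inhibitor XIAP, had 9.47 TPM in replicate 1 and 8.52 TPM in replicate 2. Coding transcripts held 53.4% of the TPM of Xaf1 in replicate 1 and 43.3% in replicate 2. These shares depend on length too. Xaf1-201, a nonsense-mediated decay transcript of 415 bases, took 52.2% of the TPM in replicate 2 from 101.43 of 562 counts. The intervals of Xaf1 overlapped between the libraries, and those of Trim30a did not. For Trim30a, a transcript of 761 bases without a name in GENCODE M21 had 3.26 TPM in replicate 1 and 0 in replicate 2. The coding transcript Trim30a-201 had 11.43 TPM in replicate 1 and 11.68 TPM in replicate 2, with intervals that overlapped. Rtp4, a chaperone of membrane receptors, had 8.56 TPM in replicate 1 and 5.81 TPM in replicate 2, and its interval overlapped that of Xaf1 in replicate 1. Ifi35, a leucine zipper protein that binds Nmi, had 5.56 TPM in replicate 1 and 7.63 TPM in replicate 2.

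Stat2 was low beside Irf9, its partner in the complex that binds the response element. Stat2 had 1.73 TPM in replicate 1 and 1.35 TPM in replicate 2, and the deposited share of Stat2-201 was 100% and 98.3%. The interval of Stat2-201 in replicate 2, from 0.098 to 1.32 TPM, leaves its split from Stat2-202 unresolved. Irf9 had 14.9 TPM in replicate 1 and 12.6 TPM in replicate 2. The Stat2 level was below that of Irf9 in both libraries, and this pair was not among the 30 compared by interval.

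**Figure D3:**
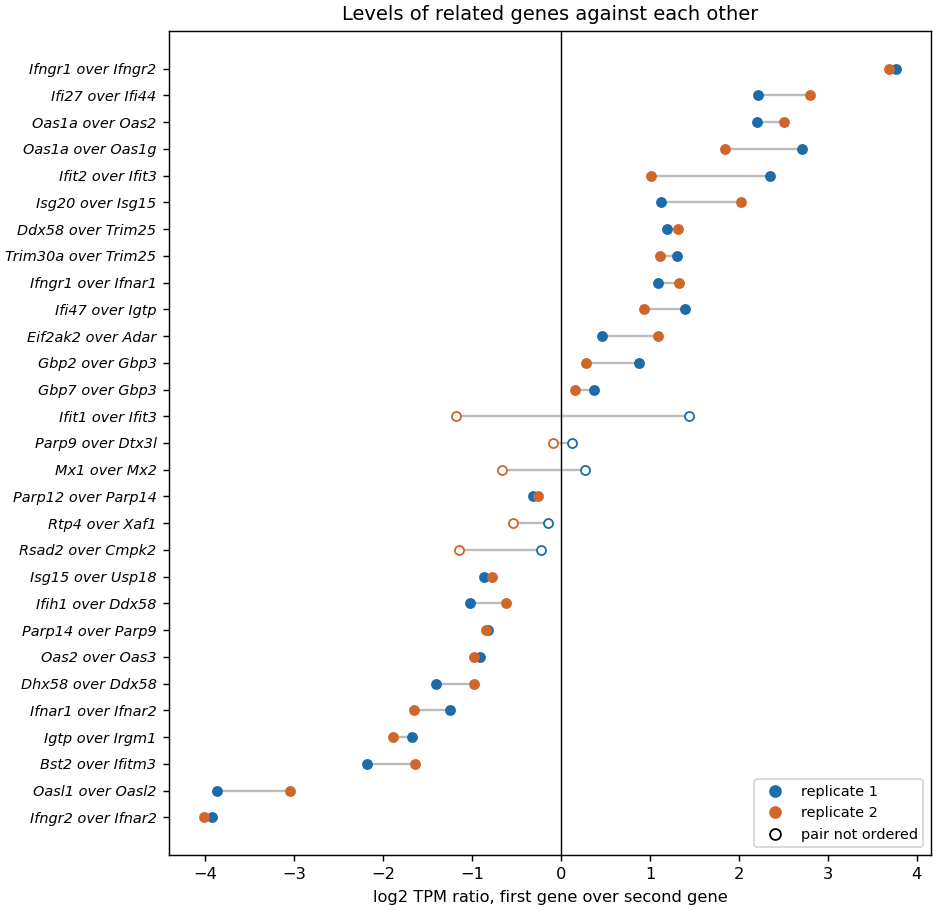
Log2 TPM ratio of the first-named over the second-named gene in each replicate for 29 of the 30 pairs, with a pseudocount of 0.1 TPM. Open circles mark the 5 pairs without the same order and separate intervals in both libraries, among them Ifit1 over Ifit3, whose points lie on opposite sides of 0.

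Of 30 pairs of related genes, 25 had the same order and separate intervals in both libraries. The 5 that did not were Ifit1 with Ifit3, Mx1 with Mx2, Parp9 with Dtx3l, Rsad2 with Cmpk2, and Rtp4 with Xaf1. Opposite orders with separate intervals were seen in Ifit1 with Ifit3 alone. Among ordered pairs the widest were Ifngr2 with Ifnar2, at 15.7-fold, and Ifngr1 with Ifngr2, at 13.3-fold.

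Most members differed between the replicates by more than their intervals but by a small amount. Of the 42 members of at least 1 TPM on average, 32 had separate intervals (76.2%), against 70.7% of 10958 annotated genes at that level. The log2 ratio of replicate 2 over replicate 1 was below 0.5 in size for 32 of these 42 (76.2%), against 59.2% of the genes. Replicate 2 gave the higher value for 27 members and replicate 1 for 17, with a median log2 ratio of 0.26. The 9900 protein-coding genes of at least 1 TPM on average had a median of 0.29, so that relative to this shift 20 members were higher in replicate 2 and 24 in replicate 1, with a median of -0.03. The share of all TPM in protein-coding genes was also higher in replicate 2, as given above, and its part in this shift was not tested. By role, the centred median was 0.06 for receptors, -0.36 for sensors and -0.02 for effectors. The call of apart needed separate intervals, more than 2-fold and an average of 1 TPM or more. Ifit3, at 3.10-fold, and Isg20, at 3.42-fold, were apart and higher in replicate 2, 2 of 42, against 7.36% of all annotated genes of at least 1 TPM, or 3.84% with centred ratios. No member was apart and lower in replicate 2, against 4.18% of genes. With centred ratios Ifit1 and Mx1 were, against 6.54% of genes. These shares lie near the background. With 1 group of 2 libraries no test was made, since an exact sign-flip permutation could not go below a p of 0.5. The coefficient of variation between the libraries over 13818 genes was 0.337, from edgeR's common dispersion. Neutrophil-lineage and monocyte markers were higher in replicate 1 and erythroid markers in replicate 2, as given above, and their part in these differences was not tested.

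**Figure D4:**
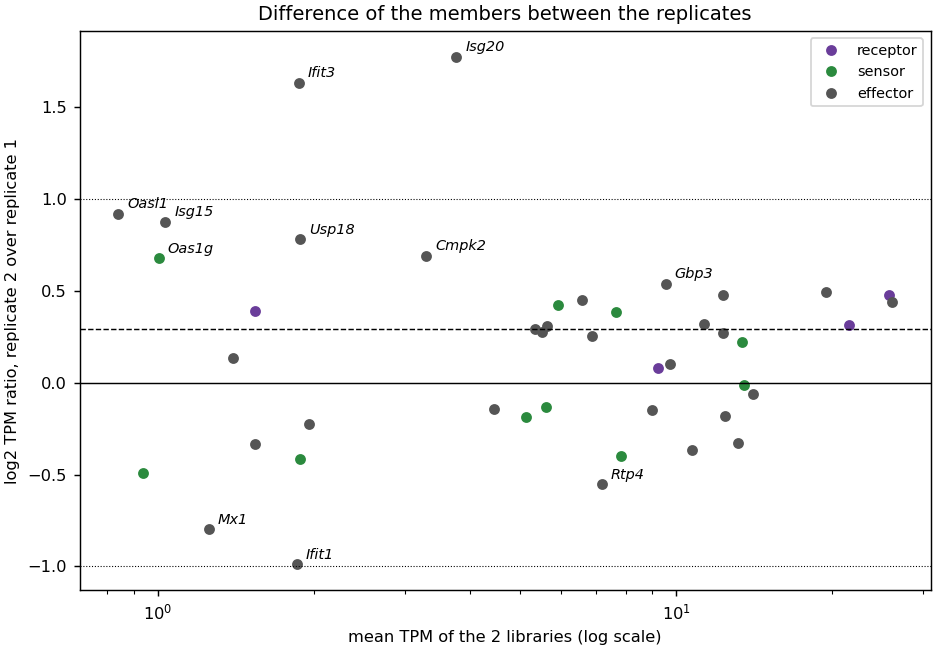
Log2 TPM ratio of replicate 2 over replicate 1 for each member against its mean TPM on a log scale, with a pseudocount of 0.1 TPM. The dashed line is the median of 9900 protein-coding genes of at least 1 TPM on average, 0.29, and dotted lines mark 2-fold. Ifit3 and Isg20 lie above the upper dotted line, and genes beyond 0.5 in size are named.

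Transcript classes of the members were close to those of other detected genes. Among the 38 detected members the median share of TPM in protein-coding transcripts was 96.5% in replicate 1 and 99.8% in replicate 2, against 97.7% and 99.9% for 9443 detected protein-coding genes. Coding transcripts held under 50% of the level in both libraries for 2 of 38 members (5.26%), against 7.13% of these genes. These 2 were Ifi27 and Oasl2. Parp9 had 85.3% in coding transcripts in replicate 1 and 57.7% in replicate 2.

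**Figure D5:**
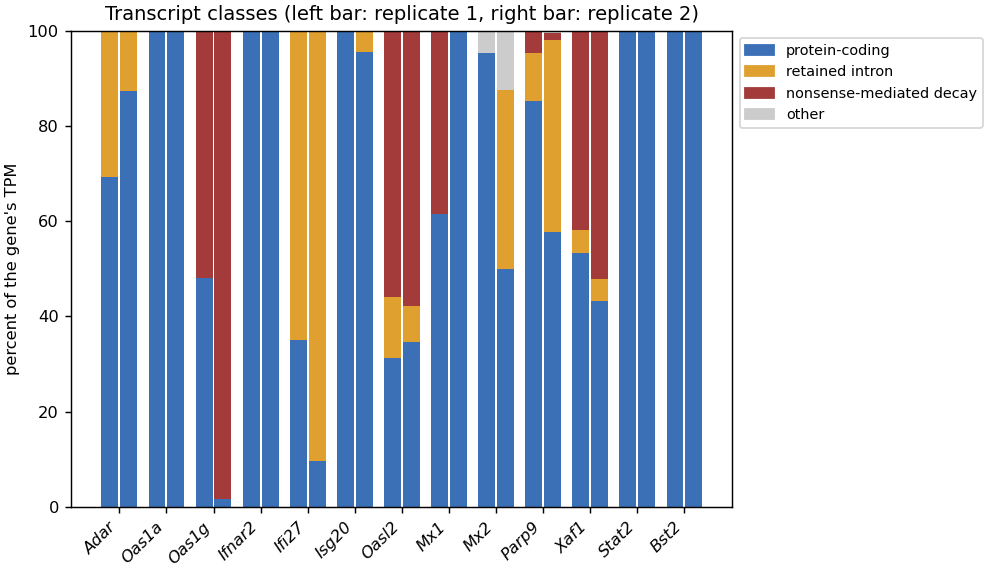
Percent of each gene's TPM by transcript class, with the left bar replicate 1 and the right bar replicate 2. Ifi27 has most of its TPM in retained-intron transcripts in both libraries, and Oasl2 in nonsense-mediated decay transcripts. Oas1a, Stat2, Bst2 and Ifnar2 have all of their TPM in coding transcripts.

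Other genes of the pathway placed the members in context. Of 21 interferon genes 0 were detected at 1 TPM and 19 had 0 counts in both libraries, among them Ifnb1, Ifne, Ifnk, Ifnl2, Ifnl3 and 14 of the alpha group, from Ifna1 to Ifnab. Ifng had 0.26 TPM in replicate 1 and 0.30 TPM in replicate 2, from 23 and 37 counts, and Ifnz had 0 and 17 counts. Thus transcripts of the ligands were at or near 0 while those of receptors and effectors were present.

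The signalling genes were mostly detected, at 14 of 16. Ptpn6, the phosphatase SHP-1, had 76.8 TPM in replicate 1 and 106 TPM in replicate 2. Ptprc, or CD45, had 67.6 TPM in replicate 1 and 66.4 TPM in replicate 2. Jak1, the kinase shared by both receptors, had 23.6 TPM in replicate 1 and 23.7 TPM in replicate 2, while Tyk2 had 1.86 and 1.76 TPM in the same order. Tyk2, used by the type I receptor, was thus low beside Jak1, which the receptors for both kinds of interferon use. Of 8 interferon regulatory factors 7 were detected, led by Irf1 with 24.2 TPM in replicate 1 and 26.0 TPM in replicate 2. Irf3 had 17.2 TPM in replicate 1 and 15.55 TPM in replicate 2, and Irf2 6.09 and 7.31 TPM.

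Among 27 genes of other sensors and adaptors 20 were detected. Ifi203, of the family that binds DNA, had 37.0 TPM in replicate 1 and 32.3 TPM in replicate 2. Samhd1, which depletes nucleotides, had 20.9 TPM in replicate 1 and 27.5 TPM in replicate 2, and Aim2, an inflammasome sensor of DNA, 19.1 and 15.8 TPM. Mavs, the adaptor of RIG-I and MDA5, had 2.79 TPM in replicate 1 and 3.25 TPM in replicate 2. For the DNA pathway, Cgas had 3.36 TPM in replicate 1 and 3.69 TPM in replicate 2, and its adaptor Tmem173, or STING, 6.42 and 6.01 TPM. The adaptor Mavs was thus lower than both sensors that signal through it in each library.

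Of 54 further interferon-stimulated genes 34 were detected. Tgtp2, an immunity-related GTPase, had 89.2 TPM in replicate 1 and 127 TPM in replicate 2, but is identical to Tgtp1 at 99.7% of 1245 aligned coding bases, and the split between them is uncertain. Psmb8, of the immunoproteasome, had 62.8 TPM in replicate 1 and 63.0 TPM in replicate 2, and Lgals3bp 21.6 and 33.7 TPM. Ifi27l2b, Ifi44l, Oas1f, Oas1h and Apol9a had 0 counts in both libraries. Over all of these lists 75 of 126 genes were detected.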

How the data were processed

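Both libraries were total RNA from HSC. Per the file headers, the deposited gene and transcript tables hold expected counts, which are estimated and may be fractions, with TPM, FPKM, their posterior means, a lower and upper bound (treated as a score) and the isoform percent. Per the sample text files the authors used GENCODE M4 on mm10. Aligner, counter and strand setting, all not given in the sources used here, could change which reads a gene received. The width of the bounds implied a level of 95.0% in each library.

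Members and lists were chosen with earlier results of these data known. Symbols, classes and positions were looked up in GENCODE M21, and promoters from RefSeq (GRCm38.p6). Named genes were all 44 members, the 3 highest of each pathway list, those at 0 counts, and Irf9, Jak1, Tyk2, Mavs, Tmem173 and Cgas (also named Mb21d1). Others given, such as Oas1g, Oasl2, Xaf1 and Parp9 transcripts, were chosen after their values were seen. Gbp5 and Gbp6 were not analysed here. A few genes that this rule or the lists take are not reported here by name, but count in the list and pair totals. The window shared by Parp9 and Dtx3l is transcribed and not printed. Families were compared by coding sequence, as identical over aligned bases in a global alignment, in place of protein.

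With 1 group there was no test across genes. Ratios used a pseudocount of 0.1 TPM, list medians 1 TPM. Dispersion came from edgeR on expected counts rounded to whole numbers, for genes with at least 10 in both libraries. Steps were tested on simulated data. Alternatives were other thresholds, scales, DESeq2 size factors and each library alone. Tools were Python 3.11.15, Biopython 1.88, R 4.3.3, edgeR 4.0.16 and DESeq2 1.42.0.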

Additional observations from a re-analysis of the deposited data

How the results depend on the processing

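Detection of the members ranged from 30 at 2 TPM to 44. The 44 were reached at 0.5 TPM, at 10 counts, with FPKM or with TPM rescaled over protein-coding genes. Looser settings take in more of all genes too. At 10 counts in both libraries 12093 of 21474 protein-coding genes passed, and this background was not taken at the other alternatives. Detection of the other pathway genes ranged from 71 to 98 under alternatives chosen after seeing the data. The log2 difference of the members' median from protein-coding genes, 2.22, was 3.32 with a pseudocount of 0.1, 2.89 with FPKM, 3.17 with CPM, 3.16 with rescaled TPM and 0.39 among genes with at least 10 counts, and 2.15 to 2.29 with 1 library left out. The 2 members apart and higher in replicate 2 became 6 at 1.5-fold, 0 at 4-fold and 0 at a minimum of 5 TPM. The 0 apart and lower became 2, Ifit1 and Mx1, at 1.5-fold and with TMM, DESeq2 size factors or centred ratios. Of 30 pairs 25 were ordered, against 27 and 29 in single libraries. CPM turned Parp14 over Parp9 (-0.83 by TPM) to 0.75 and Ifi27 over Ifi44 (2.51 by TPM) to -0.26, since it does not divide by length. Among pairs that were not ordered, it moved Rtp4 over Xaf1 from -0.34 to 0.96 and Parp9 over Dtx3l from 0.02 to -1.11. The coefficient of variation was 0.393 over genes with at least 1 count. Counting only the strand of the gene, 28.6% of member promoters held the core, against 5.15% of all genes. No paired analysis was possible because there was 1 group. Depth limits Isg15, Oasl1 and Oas1g, with 34 to 99.67 counts in replicate 1.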

Other observations

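Among the 54 further interferon-stimulated genes 24 were higher in replicate 2 and 25 in replicate 1. Their median log2 ratio was 0, against 0.29 for protein-coding genes of at least 1 TPM. In each direction 1 was apart, against 7.36% higher and 4.18% lower in replicate 2 among annotated genes of at least 1 TPM. With centred ratios 1 was higher and 3 were lower, against 3.84% and 6.54%. Not all of the 54 reach 1 TPM. The relatives of members named next were picked after their values were seen, for being lower in replicate 2, and of these Oas1b, Gbp9 and Ifi211 averaged under 1 TPM. Oas1c had 1.68 TPM in replicate 1 and 0.42 TPM in replicate 2, and Oas1b 0.95 and 0.25 TPM. Gbp9 had 1.20 TPM in replicate 1 and 0.33 TPM in replicate 2. Ifi204, a DNA sensor of myeloid cells, had 2.17 TPM in replicate 1 and 0.31 TPM in replicate 2, and the related Ifi211 had 95.75 and 0 counts. Monocyte and macrophage markers were higher in replicate 1 for 12 of 14 genes, and their part in these values was not tested.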
